A study of Mus musculus with 32 samples.

Results

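The genes of cholesterol synthesis and sterol control were followed as 28 genes of known function. They are the enzymes that build cholesterol, the proteins that set the activity of the pathway, and a few genes that carry or store sterol. The set was chosen by function but with earlier results of these data known. The shares of all genes given beside it are therefore descriptive and not a test of the set. Of the 28 genes, among 18312 genes named on the array, 23 had an annotated probe (34 probes in all). Fdft1, Mvk, Acat2, Soat2 and Nr1h2 were not analysed here, and the probes of Ggps1 and Mylip were not detected in any mouse. The other 21 genes were detected in all 27 mice that were compared, so no gene entered through 1 group alone, and these 21 are the members tested.

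Liver RNA of male C57BL/6J mice was hybridised to Illumina MouseRef-8 bead arrays to follow what long feeding of disulfiram (DSF), an inhibitor of aldehyde dehydrogenase given against alcohol dependence, does on a standard and on an obesogenic diet. All mice ate a purified diet for 40 weeks and were 56 weeks old by their sample labels. They received the standard diet (SD, 17% of energy from fat) or the high-fat diet (HFD, 61%), with no drug, a low dose (SDL and HFDL, formulated for 100 mg/kg body weight a day) or a high dose (SDH and HFDH, 200 mg/kg a day). In the food this came to 1 (SDL), 2 (SDH), 2.33 (HFDL) and 2.67 (HFDH) grams of drug a kilogram, so the high-dose food held 2-fold the drug of the low-dose food on SD but only slightly more on HFD. Each group had 5 mice, housed 4 to a cage, and which mice shared a cage is not given, so the p-values treat mice as independent. After 3 arrays with few detected probes were left out, 5 SD, 5 SDL, 4 SDH, 5 HFD, 4 HFDL and 4 HFDH mice remained.

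Cholesterol is made in the endoplasmic reticulum from acetyl-CoA, first through the mevalonate arm to the isoprenoid farnesyl diphosphate and then through squalene and lanosterol. The liver is a main site of this synthesis. Transcription of nearly all these enzymes is driven by SREBP-2, the product of Srebf2: when sterol in the membrane is low, the escort protein Scap carries SREBP-2 to the Golgi for cleavage, and when sterol is high, the Insig proteins hold the complex back.

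Promoter sequence is shown for 5 of the 7 members called higher in SDH than in SD mice. Sqle and Stard4, also called, are not shown, and neither is among the members counted with CCAAT below. Each of them either had no matched entry or had a window without these letters. The 5 windows shown therefore do not stand for all 7 called members. Whether these genes move together from mouse to mouse was not tested. The 250 bases before the annotated start were taken from RefSeq (mouse build GRCm38.p6), 5′ to 3′ in the direction of transcription, and 22 of the 28 genes matched an entry. Capitals mark CCAAT, the letters bound by NF-Y, a factor known to act beside SREBP-2, and TCACNCCAC, a sterol element, each searched on both strands (reverse complements ATTGG and GTGGNGTGA). The windows are chr13:119690101-119690350, plus strand for Hmgcs1, chr13:8885356-8885605, plus strand for Idi1, chr8:64733579-64733828, minus strand for Msmo1, chr5:4104698-4104947, minus strand for Cyp51 and chr19:6067851-6068100, minus strand for Tm7sf2.
Hmgcs1: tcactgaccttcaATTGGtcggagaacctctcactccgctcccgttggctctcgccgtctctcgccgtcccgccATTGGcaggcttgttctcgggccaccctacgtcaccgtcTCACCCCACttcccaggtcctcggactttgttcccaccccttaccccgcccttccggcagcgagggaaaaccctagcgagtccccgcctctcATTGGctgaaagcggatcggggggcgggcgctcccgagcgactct
Idi1: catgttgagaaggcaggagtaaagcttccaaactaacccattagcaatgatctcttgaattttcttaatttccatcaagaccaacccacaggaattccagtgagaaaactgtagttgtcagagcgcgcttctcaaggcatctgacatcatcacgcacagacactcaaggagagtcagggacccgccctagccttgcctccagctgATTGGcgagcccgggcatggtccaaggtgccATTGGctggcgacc
Msmo1: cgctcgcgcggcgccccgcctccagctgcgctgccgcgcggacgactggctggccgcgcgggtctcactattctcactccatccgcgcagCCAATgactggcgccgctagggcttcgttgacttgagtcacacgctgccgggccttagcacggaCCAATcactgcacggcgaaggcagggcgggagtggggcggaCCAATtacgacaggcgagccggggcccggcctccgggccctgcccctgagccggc
Cyp51: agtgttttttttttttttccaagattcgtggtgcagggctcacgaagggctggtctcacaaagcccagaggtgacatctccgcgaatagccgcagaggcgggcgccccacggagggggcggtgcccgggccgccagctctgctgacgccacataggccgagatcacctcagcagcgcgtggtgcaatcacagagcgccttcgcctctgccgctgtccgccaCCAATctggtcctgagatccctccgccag
Tm7sf2: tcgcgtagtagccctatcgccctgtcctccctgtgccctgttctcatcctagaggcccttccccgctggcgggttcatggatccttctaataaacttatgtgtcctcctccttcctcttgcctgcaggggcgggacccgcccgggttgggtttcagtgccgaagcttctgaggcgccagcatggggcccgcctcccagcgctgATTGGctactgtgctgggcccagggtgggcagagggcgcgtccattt
CCAAT stood in the windows of 19 of the 22 members, against 33.8% of all 32851 promoter windows in the reference and 35.2% of the 9647 windows of genes tested on the arrays. Of the other strings searched, which are not in capitals, GGGCGG (Sp1 box) also stood in 19 of the 22, against 54.8% of the tested windows. CACGTG (E-box) stood in 5 of the 22, against 8.26% of the tested windows. The windows of Hmgcs1 and Msmo1 each held 3 copies, and that of Idi1 held 2. TCACNCCAC was found in 1 member, Hmgcs1, starting 137 bases before the start, and in 1.05% of all windows. A match is a string of letters in this window and was not tested as a binding site.

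The values below are log2 intensities, centred and scaled for each array, so that a level of 0 is the mean of all probes. A difference of 1 is only roughly 2-fold, since each array was divided by its own SD. That SD ran from 1.92 to 1.99 in SD, 1.86 to 1.93 in SDH and 1.78 to 1.87 in HFDH mice. Its part in the size of the differences was not tested gene by gene. Some counts without scaling are given among the alternatives, but none for SDH-SD. Levels of different genes come from different probes and are not set against each other. Differences were tested with limma in 1 fit over the 6 groups, adjusted over 9972 genes by Benjamini-Hochberg, with 21 members among them, and a member is called at an adjusted p under 0.05. HFD-SD, SDL-SD and SDH-SD share the 5 SD mice, and HFDL-HFD and HFDH-HFD share the 5 HFD mice. In bulk liver, fewer cells of a type and less RNA per cell cannot be told apart.

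SD replicate 2 and SDH replicate 17 carried RNA of the exocrine pancreas: the mean level of 6 tested of 14 marker genes was 3.15 and 5.91 in them, against 0.85 in SD replicate 4 and 0.54 or less in the other mice. The mean level of 2 tested of 4 adipocyte markers was 0.87 in SD replicate 4 and 0.40 in SDH replicate 17, against -0.22 or less in the other mice. The mean level of 5 tested of 7 hepatocyte markers was high in every group, from 4.33 to 4.48 in SD and from 4.58 to 4.89 in SDH mice, and that of 2 tested of 3 cholangiocyte markers ran from -0.91 to -0.49 in SD and from -0.30 to -0.01 in SDH mice. The ranges of the 6 Kupffer cell and macrophage markers (1.12 to 2.45 and 1.56 to 1.92) and of the 6 stellate and endothelial markers (0.06 to 0.63 and -0.11 to 0.80) overlapped between SD and SDH. The part of these differences in the results on the members was not tested.

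On the standard diet, 7 members were higher with high-dose DSF and the other 14 did not pass the test. In SDH against SD mice, 7 of the 21 members were called higher and none was called lower, where 2.81% of all genes were called higher and 4.26% lower. The 7 were Sqle, Msmo1, Cyp51 and Tm7sf2 of the squalene-to-cholesterol arm, Hmgcs1 and Idi1 of the mevalonate arm, and Stard4. For the same 7 members every SDH mouse lay above every SD mouse, which held for 2.94% of all genes. The median difference of the members was 0.59, with 19 of 21 above 0, while the median of all genes was -0.04 with 42.7% above 0. At an unadjusted p under 0.05, 14 of the 21 members passed, beside 2341 of all 9972 genes. The count of 7 depended on the mice and the test: it was 4 without the pancreas-containing mice (SD replicate 2 and SDH replicate 17), 3 without SD replicates 2 and 5, 2 with only the mice of both groups in the fit, and 0 with all 30 mice or by the methods' t-test after adjustment.

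**Figure D1:**
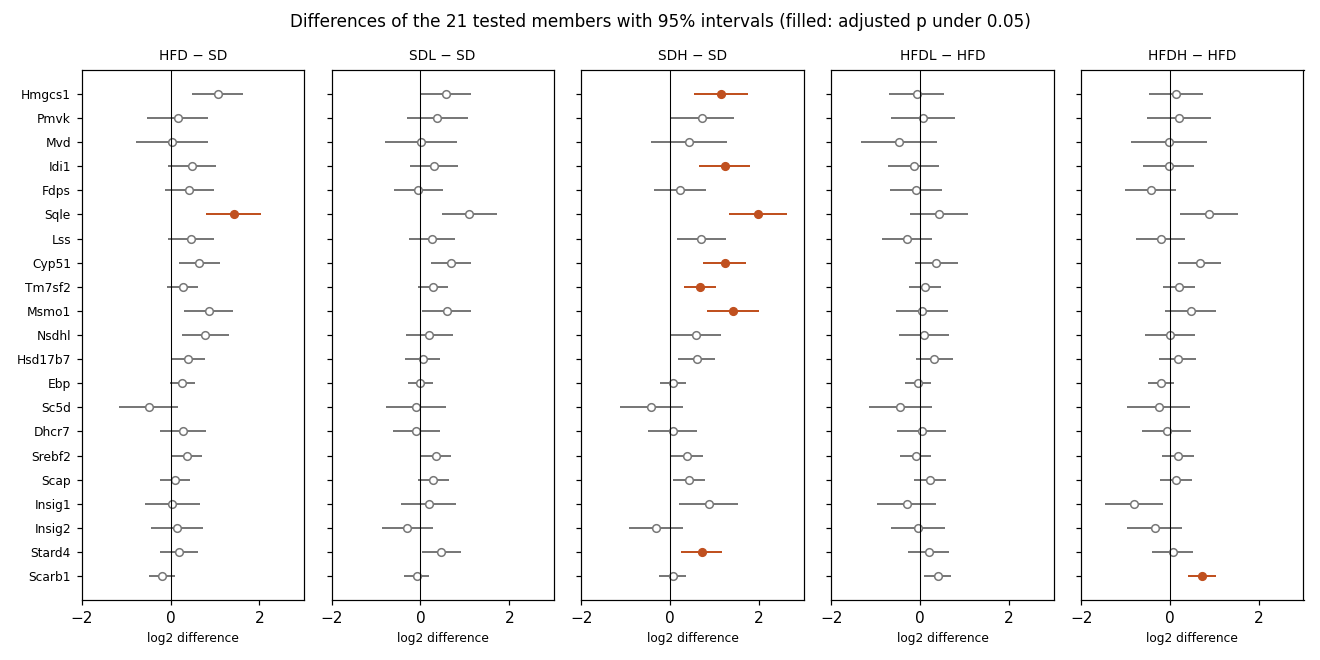
Log2 difference (horizontal axis) of each of the 21 tested members (rows, in pathway order) in the 5 comparisons (panels), with lines for 95% intervals and filled points for an adjusted p under 0.05. Of the filled points, 7 lie in SDH-SD, 1 (Sqle) in HFD-SD and 1 (Scarb1) in HFDH-HFD.

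Hmgcs1 encodes the cytosolic HMG-CoA synthase, which opens the mevalonate arm. Its level was 6.41, 5.89, 6.81, 6.44 and 4.84 in the 5 SD mice, 6.49, 6.80, 6.72, 6.84 and 6.36 in the SDL mice and 7.22, 7.01, 7.80 and 6.86 in the SDH mice. It was 7.38, 6.97, 6.75, 7.57 and 7.04 in the HFD mice, 7.38, 7.19, 7.34 and 6.32 in the HFDL mice and 7.65, 6.99, 7.15 and 7.27 in the HFDH mice. All 4 SDH mice lay above all SD and all SDL mice, and SD replicate 5 was the lowest mouse of the 27. SDH was 1.15 ± 0.29 (SE) above SD (4 and 5 mice; limma adjusted p = 0.018), and without SDH replicate 15 the difference was 0.95 and not called (limma adjusted p = 0.0774). HFD was 1.06 ± 0.27 above SD, which just missed the threshold (limma adjusted p = 0.053, 5 and 5 mice), and HFDH was 0.12 ± 0.29 above HFD (limma adjusted p = 0.847, 95% interval -0.47 to 0.71).

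Idi1 encodes isopentenyl-diphosphate isomerase, which makes the starter unit of the isoprenoids. Its probe was dim, with a median signal of 120 where the median probe of an array read 57 to 77. Its level was -0.27, -0.63, -0.08, 0.13 and -0.83 in the SD mice, -0.49, 0.30, -0.37, 0.48 and -0.08 in the SDL mice and 0.15, 0.45, 1.17 and 1.78 in the SDH mice. The SDH mice were widely spread, with replicates 15 and 17 well above replicates 13 and 14, and the lowest of them lay just above the highest SD mouse. SDH was 1.22 ± 0.27 above SD (limma adjusted p = 0.00792, 4 and 5 mice). Levels were 0.83, -0.15, -0.22, 0.13 and 0.14 in the HFD mice, 0.11, 0.06, -0.16 and -0.02 in the HFDL mice and 0.37, -0.05, -0.22 and 0.33 in the HFDH mice, overlapping ranges, and HFDH-HFD was -0.04 ± 0.27. Without SD replicate 2 and SDH replicate 17, SDH-SD was 0.85 and the call was lost (adjusted p = 0.0746).

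The other tested genes of the mevalonate arm were Pmvk and Mvd, which phosphorylate and decarboxylate mevalonate intermediates, and Fdps, which joins isoprenoid units to farnesyl diphosphate. In SDH-SD they differed by 0.72 (Pmvk), 0.42 (Mvd) and 0.22 (Fdps), with adjusted p of 0.2 or more by limma. Mvd had the most negative difference of the members in HFDL-HFD, -0.48 ± 0.41 (limma adjusted p = 0.736). Its levels were 1.14, 0.78, -0.01, 0.75 and 1.27 in the HFD mice and 0.27, 0.29, -0.44 and 1.12 in the HFDL mice, and on SD they were 1.60, 0.44, 1.18, 1.09 and -0.52 in the SD mice, 0.64, 0.89, 0.13, 1.01 and 1.14 in the SDL mice and 0.73, 0.77, 1.25 and 1.96 in the SDH mice. The HFDH mice read 0.43, 0.66, -0.07 and 2.05, with replicate 17 far above the rest. The groups overlapped throughout.

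Sqle, squalene epoxidase, carries out the first oxygenation of the sterol branch and is a control point of the pathway. It had the highest difference of the members in HFD-SD, SDL-SD, SDH-SD, HFDL-HFD and HFDH-HFD. Its level was 3.06, 2.08, 3.33, 3.44 and 2.33 in the SD mice, 3.16, 4.09, 3.45, 4.48 and 4.53 in the SDL mice and 4.60, 4.62, 5.09 and 4.97 in the SDH mice. It was 4.61, 4.59, 3.27, 4.32 and 4.55 in the HFD mice, 5.01, 4.52, 4.51 and 4.76 in the HFDL mice and 5.56, 4.73, 4.88 and 5.42 in the HFDH mice. All SDH mice lay above all SD and SDL mice, all HFDH mice lay above all HFD mice, and HFD replicate 3 fell within the SD range while the other 4 HFD mice lay above it. SDH was 1.98 ± 0.31 above SD, 3.93-fold on the scaled values (limma adjusted p = 0.000536, 4 and 5 mice). HFD was 1.43 ± 0.29 above SD, 2.69-fold on the scaled values (limma adjusted p = 0.016, 5 and 5 mice). HFDH was 0.88 ± 0.31 above HFD, which did not pass (limma adjusted p = 0.105, 4 and 5 mice). The second Sqle probe gave 1.48 for SDH-SD (limma adjusted p = 0.00835 over 13301 probes) and 1.38 for HFD-SD (adjusted p = 0.0324). By that probe SDH overlapped with SDL mice, and HFDH with HFD mice.

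**Figure D2:**
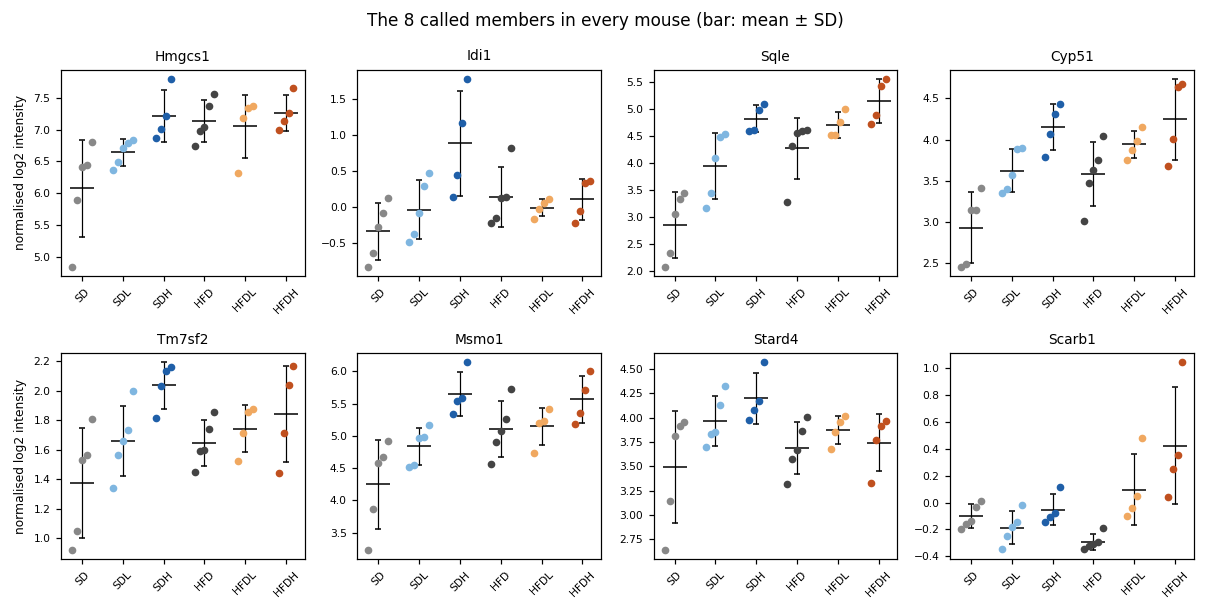
Normalised log2 intensity (vertical axis, a separate scale in each panel) of the 8 members called in at least 1 of the 5 comparisons, with 1 point for each of the 27 mice, by group, and bars for the mean ± SD. Sqle, Msmo1, Cyp51, Hmgcs1, Idi1, Tm7sf2 and Stard4 lie higher in all SDH than in all SD mice, and Scarb1 lies higher in all HFDH than in all HFD mice.

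Cyp51, lanosterol demethylase, read 3.15, 2.46, 3.42, 3.14 and 2.49 in the SD mice, 3.40, 3.90, 3.57, 3.88 and 3.35 in the SDL mice and 4.07, 4.31, 4.43 and 3.79 in the SDH mice. On HFD it read 4.05, 3.47, 3.01, 3.63 and 3.75 in the HFD mice, 4.15, 3.87, 3.99 and 3.75 in the HFDL mice and 4.67, 3.67, 4.01 and 4.63 in the HFDH mice. Every SDH mouse was above every SD mouse, and 3 of the 4 were above every SDL mouse, while the HFD, HFDL and HFDH ranges overlapped. SDH was 1.22 ± 0.22 above SD (limma adjusted p = 0.0021, 4 and 5 mice). SDL-SD was 0.69 ± 0.21 (limma adjusted p = 0.156), HFD-SD 0.65 ± 0.21 (adjusted p = 0.156) and HFDH-HFD 0.66 ± 0.22 (adjusted p = 0.0919), none of which passed.

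Msmo1, the methylsterol oxidase that starts removal of the C4 methyl groups, read 4.57, 3.86, 4.92, 4.67 and 3.23 in the SD mice, 4.55, 4.99, 4.52, 5.17 and 4.97 in the SDL mice and 5.35, 5.54, 6.14 and 5.59 in the SDH mice. On HFD it read 5.73, 5.08, 4.57, 5.25 and 4.91 in the HFD mice, 5.41, 5.24, 5.20 and 4.73 in the HFDL mice and 5.71, 5.19, 5.36 and 6.00 in the HFDH mice. The SDH mice stood above all SD and SDL mice, and the 3 HFD groups overlapped. SDH was 1.40 ± 0.27 above SD (limma adjusted p = 0.00303, 4 and 5 mice), and HFD was 0.86 ± 0.26 above SD (limma adjusted p = 0.116).

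Tm7sf2, a sterol reductase of the endoplasmic reticulum, read 1.56, 0.92, 1.81, 1.53 and 1.05 in the SD mice, 1.66, 2.00, 1.34, 1.74 and 1.56 in the SDL mice and 2.13, 1.82, 2.04 and 2.16 in the SDH mice. It read 1.86, 1.60, 1.45, 1.59 and 1.74 in the HFD mice, 1.85, 1.71, 1.88 and 1.53 in the HFDL mice and 1.44, 1.72, 2.04 and 2.17 in the HFDH mice. The lowest SDH mouse and the highest SD mouse were almost level, and no other pair of groups within a diet was apart. SDH-SD was 0.66 ± 0.16 (limma adjusted p = 0.0175, 4 and 5 mice), and without SD replicate 2 it was 0.55 and no longer called (limma adjusted p = 0.0568).

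The other 6 enzymes tested of the squalene-to-cholesterol arm were not called in HFD-SD, SDL-SD, SDH-SD, HFDL-HFD or HFDH-HFD. Lanosterol synthase (Lss) differed by 0.70 in SDH-SD, Hsd17b7, a ketosteroid reductase, by 0.59 and Nsdhl, which removes the C4 carbon with it, by 0.58, with limma adjusted p of 0.0965, 0.0569 and 0.181. Ebp, the sterol isomerase, and Dhcr7, which makes cholesterol from its last precursor, differed by 0.05 each in SDH-SD. Nsdhl had a difference of 0.78 ± 0.25 in HFD-SD (limma adjusted p = 0.144). Ebp was lower in every HFDH than in every HFD mouse, by only 0.20 ± 0.13 (limma adjusted p = 0.398).

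Sc5d, the sterol desaturase that acts just before Dhcr7, was the enzyme with the most negative difference in HFD-SD and SDH-SD. It read 2.91, 2.11, 2.48, 2.48 and 0.80 in the SD mice, 2.12, 2.12, 1.61, 2.50 and 1.92 in the SDL mice and 1.55, 1.80, 1.73 and 1.83 in the SDH mice. It read 1.96, 1.89, 1.21, 1.58 and 1.69 in the HFD mice, 0.91, 1.42, 0.73 and 1.82 in the HFDL mice and 0.87, 1.39, 0.85 and 2.54 in the HFDH mice. SD replicate 5 was the lowest SD mouse by far and the other 4 lay above every SDH mouse, and HFDH replicate 17 stood far above the other HFDH mice. The differences were -0.43 ± 0.33 in SDH-SD, -0.49 ± 0.31 in HFD-SD and -0.45 ± 0.33 in HFDL-HFD, with limma adjusted p of 0.466, 0.506 and 0.683, so none of them passed.

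Of the control genes, Srebf2 and Scap stood 0.38 ± 0.16 and 0.42 ± 0.16 above SD in SDH mice (limma adjusted p = 0.157 and 0.112), and Insig2 stood at -0.32 ± 0.29 (adjusted p = 0.533). Its other detected probes gave larger differences in SDH-SD, -1.09 ± 0.44 and -0.44 ± 0.26 (limma adjusted p = 0.127 and 0.317 over all probes). None of the 4 tested control genes was called in the 5 comparisons. Srebf2 ranged from 0.42 to 0.74 in SD mice and from 0.62 to 1.23 in SDH mice, and these ranges overlapped.

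Insig1, the sterol-sensing brake on SREBP-2 and itself one of its target genes, had its most negative difference in high-dose mice on HFD. By the probe used for the gene it read 2.61, 2.27, 3.40, 3.36 and 1.29 in the SD mice, 2.53, 2.75, 2.59, 3.31 and 2.68 in the SDL mice and 3.12, 3.11, 3.97 and 3.59 in the SDH mice. On HFD it read 3.21, 2.72, 2.45, 2.56 and 2.21 in the HFD mice, 2.66, 2.39, 2.37 and 1.87 in the HFDL mice and 2.15, 2.13, 1.52 and 1.46 in the HFDH mice. Every HFDH mouse lay below every HFD and every SDH mouse. The difference was -0.81 ± 0.31 in HFDH-HFD (limma adjusted p = 0.138, 4 and 5 mice), which did not pass, and -1.63 ± 0.33 in HFDH-SDH (limma adjusted p = 0.00842, 4 and 4 mice), which did. The other 2 detected Insig1 probes, about as bright, gave smaller differences. In HFDH-SDH they gave -0.38 ± 0.29 and -0.37 ± 0.29 (limma adjusted p = 0.437 and 0.443 over all probes), and with the mean of the 3 probes the call was lost (-0.79, adjusted p = 0.0798). The call therefore rests on 1 of 3 probes.

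**Figure D3:**
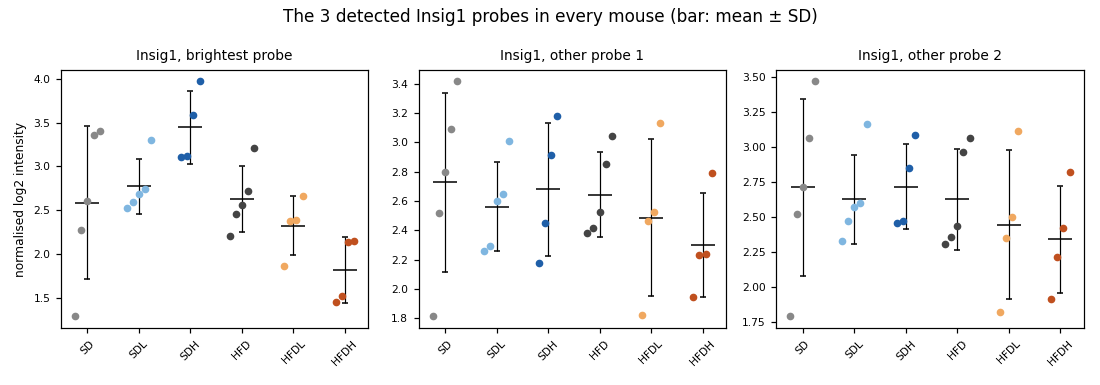
Normalised log2 intensity (vertical axis, a separate scale in each panel) of the 3 detected Insig1 probes in each of the 27 mice, by group, with bars for the mean ± SD. The probe used for the gene separates HFDH (1.46 to 2.15) from SDH (3.11 to 3.97), and in the other 2 probes these groups overlap.

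Stard4, a carrier of sterol through the cytosol, read 3.91, 3.15, 3.96, 3.81 and 2.64 in the SD mice, 3.69, 4.13, 3.83, 3.86 and 4.33 in the SDL mice and 3.97, 4.18, 4.57 and 4.08 in the SDH mice. It read 3.58, 3.66, 3.32, 3.86 and 4.01 in the HFD mice, 3.68, 4.01, 3.96 and 3.85 in the HFDL mice and 3.97, 3.77, 3.33 and 3.92 in the HFDH mice. The lowest SDH mouse lay barely above the highest SD mouse and barely above the highest HFDH mouse. SDH-SD was 0.70 ± 0.21 (limma adjusted p = 0.0456, 4 and 5 mice), close to the threshold. Leaving out single mice moved its adjusted p between 0.0287 and 0.153, and it was above 0.05 in 15 of the 27 such fits.

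Scarb1, the receptor through which the liver takes cholesterol from high-density lipoprotein, was the only member called in HFDH-HFD. Its probe was dim, with a median signal of 108. It read -0.33, -0.35, -0.19, -0.31 and -0.29 in the HFD mice, 0.48, -0.04, -0.10 and 0.05 in the HFDL mice and 1.04, 0.25, 0.36 and 0.04 in the HFDH mice. Both treated HFD groups lay wholly above the untreated one, and HFDH replicate 13 was the highest mouse of the 27. On SD it read 0.01, -0.19, -0.16, -0.14 and -0.03 in the SD mice, -0.18, -0.25, -0.02, -0.35 and -0.14 in the SDL mice and 0.11, -0.14, -0.08 and -0.10 in the SDH mice, with no group apart. HFDH-HFD was 0.72 ± 0.14 (limma adjusted p = 0.00353, 4 and 5 mice), HFDL-HFD was 0.39 ± 0.14 and did not pass (adjusted p = 0.27), and SDH-SD was 0.05 ± 0.14 (adjusted p = 0.872, 95% interval -0.24 to 0.33).

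The high-fat diet alone left 1 of the 21 members called, Sqle, where 0.491% of all genes were called higher and 0.441% lower in HFD-SD. No member separated the groups, where every HFD mouse lay above every SD mouse in 1.19% of all genes and below in 1.57%. The median difference of the members was 0.28 and 19 of 21 were above 0, while the median of all genes was -0.03 with 42.7% above 0. At an unadjusted p under 0.05, 8 members passed, beside 1393 of all 9972 genes. The call on Sqle was lost without SD replicate 2 (limma adjusted p = 0.0525) and without HFD replicate 4 (adjusted p = 0.0561). When SD replicates 2 and 5, the SD mice lowest in most members, were both left out, it was lost as well (difference 1.00, adjusted p = 0.0891).

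The low dose called no member. In SDL-SD limma called 0 members (background 0.271% higher and 0.361% lower). By limma 6 members had an unadjusted p under 0.05, beside 1071 of all 9972 genes. The methods' t-test gave 3 at an unadjusted p under 0.05 and 0 after adjustment. The median was 0.26, with 15 of 21 above 0 and Sqle highest at 1.10 ± 0.29 (limma adjusted p = 0.0857). In HFDL-HFD limma called 0 members (background 0.0702% higher and 0.391% lower). Without adjustment 1 member was under 0.05 by limma, beside 1058 of all 9972 genes. The t-test gave 1 without adjustment and 0 after it. The median was 0.03 with 11 of 21 above 0. Scarb1 alone was higher in every HFDL than in every HFD mouse (1.7% of all genes), and no member was lower in every one (3.2%).

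On the high-fat diet the high dose called Scarb1 alone, higher, where 1.44% of all genes were called higher and 2.94% lower in HFDH-HFD. Sqle and Scarb1 were higher in every HFDH than in every HFD mouse (3.81% of all genes), and Insig1 and Ebp were lower in every HFDH mouse (5.46%). For Sqle and Insig1 this held by the probe used, and their other detected probes overlapped between the groups. In HFDH-HFD the remaining Insig1 probes gave -0.34 ± 0.27 and -0.28 ± 0.27 (limma adjusted p = 0.512 and 0.601 over all probes). The median of the members was 0.06, with 12 of 21 above 0, beside -0.01 and 49.1% for all genes. Of the 7 members called in SDH-SD, the differences in HFDH-HFD ran from -0.04 for Idi1 to 0.88 for Sqle.

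Between doses on one diet, no member was called. In SDH-SDL limma called 0 members, as it did for all genes, so that the background is 0%. By limma 7 members had an unadjusted p under 0.05, beside 845 of all 9972 genes. The methods' t-test gave 8 without adjustment and 0 after it. Hmgcs1, Sqle (by the probe used) and Msmo1 were higher in every SDH than in every SDL mouse (0.782% of all genes), by 0.58, 0.88 and 0.81. In HFDH-HFDL limma called 0 members (background 0%). There 1 member, Scarb1, had an unadjusted p under 0.05, beside 588 of all 9972 genes, and the t-test gave 0 members. No member separated these groups, where 1.69% of all genes were higher and 1.76% lower in every HFDH mouse.

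Between diets at one dose, limma called 0 members in HFDL-SDL (background 0.892% higher and 2.15% lower). By limma 5 members had an unadjusted p under 0.05, beside 2001 of all 9972 genes. The t-test gave 3 without adjustment and 0 after it. Hsd17b7 came closest, at 0.66 ± 0.19 (limma adjusted p = 0.0526). Nsdhl, by the probe used, was the 1 member higher in every HFDL than in every SDL mouse (2.85% of all genes), with none lower in every one (5.81%). The margin for Nsdhl was slight, with the lowest HFDL mouse at 2.25 and the highest SDL mouse at 2.24. Its 4 detected probes gave differences from 0.26 to 0.68. In HFDH-SDH 2 members were called, Insig1 lower by the probe used and Scarb1 higher at 0.48 ± 0.15 (limma adjusted p = 0.0463), where 2.6% of all genes were called higher and 4.23% lower. Insig1 (by the probe used only) and Stard4 were lower in every HFDH than in every SDH mouse (6.6% of all genes), and no member was higher in every one (5.66%). The Scarb1 call was lost in 17 of the 27 fits that left out 1 mouse, and without HFDH replicate 13 the difference was 0.27 (limma adjusted p = 0.17).

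Whether the response to the drug differed between the diets was tested as an interaction in the same fit. For the high dose, (HFDH-HFD)-(SDH-SD), limma called 0 members (background 0.0201% higher and 0.0401% lower). At an unadjusted p under 0.05, 8 members passed, beside 1270 of all 9972 genes. The median of the members was -0.52 and 19 of 21 were below 0, the exceptions being Sc5d and Scarb1, while the median of all genes was 0.04 with 56.3% above 0. The interaction was -1.67 ± 0.44 for Insig1 (limma adjusted p = 0.118), -1.26 ± 0.38 for Idi1 (adjusted p = 0.151), -1.10 ± 0.43 for Sqle (adjusted p = 0.286) and 0.67 ± 0.20 for Scarb1 (adjusted p = 0.139). The remaining detected Insig1 probes gave -0.29 ± 0.39 each (limma adjusted p = 0.776 and 0.781 over all probes). A difference between the diets in the response to the high dose was thus not called in any member. For the low dose limma called 0 members (background 0%), 1 passed unadjusted, beside 420 of all 9972 genes, and the median of the members was -0.32.

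In some groups 1 or 2 mice were lowest or highest in most members. SD replicate 5 was the lowest of the SD mice in 13 of the 21 members and SD replicate 2 in 7 of them, leaving 1 member for the other 3 mice. HFD replicate 3 was lowest in 14 members, HFDL replicate 11 in 14, and HFDL replicate 7 was highest in 17. SDH replicate 15 was highest in 12. Other groups were mixed: the lowest SDL mouse was replicate 9 in 7 members, replicate 11 in 6 and replicate 7 in 5, and SDH replicate 17 was lowest in 8 members and highest in 5. Members share the array of a mouse, so these counts describe mice and not separate measurements. The 2 mice measured on 2 arrays gave members that differed between arrays by a median of 0.12 (SD replicate 1) and 0.09 (HFD replicate 2), at most 0.32. SD replicates 2 and 5 bear on every comparison with SD: without both, 3 members (Sqle, Cyp51 and Msmo1) were called in SDH-SD instead of 7, the members' median was 0.30 there and -0.09 in SDL-SD. This choice was made after the values were seen, and leaving out the lowest SD mice lowers every difference from SD by construction. Without SD replicate 2 and SDH replicate 17, the pancreas-containing mice, 4 were called (Hmgcs1, Sqle, Cyp51 and Msmo1). With only the mice of both groups in the fit, the 2 called were Sqle and Cyp51.

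**Figure D4:**
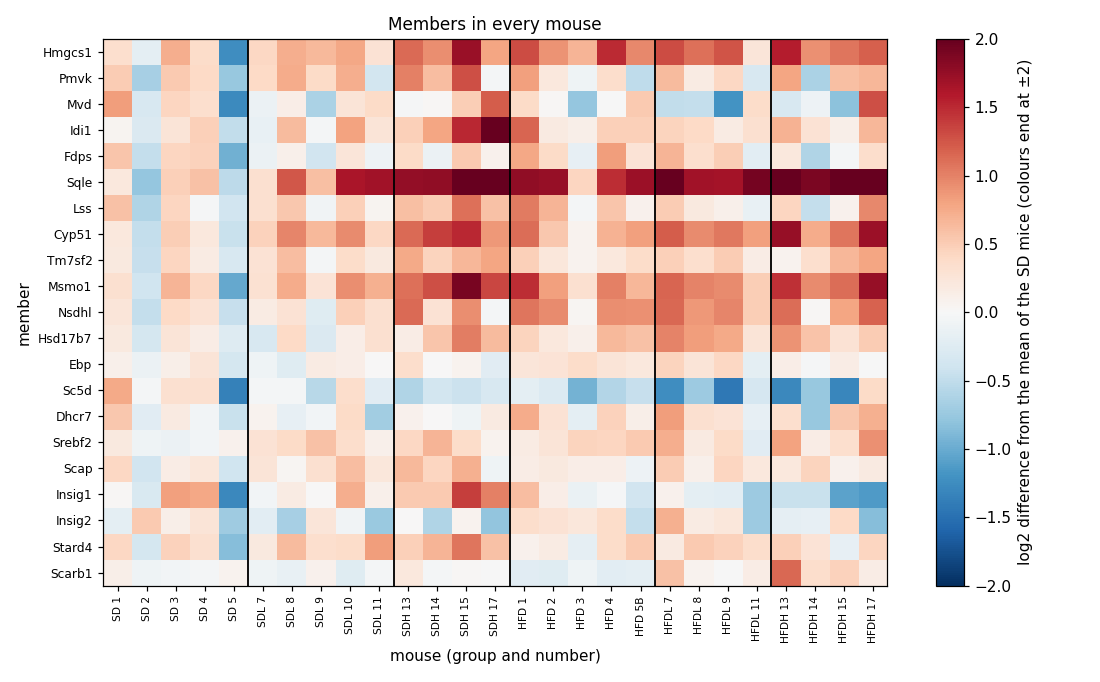
Level of each of the 21 tested members (rows, in pathway order) in each of the 27 mice (columns, by group), as a colour for the log2 difference from the mean of the SD mice, red above and blue below, with colours ending at ±2. SD replicates 2 and 5 are below the SD mean in most rows, and the row of Sqle is red in every treated and HFD mouse.

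Genes next to the pathway were read from 4 further lists. Of the 12 tested SREBP-1c and fatty acid synthesis genes, whose main regulator is the sister factor of SREBP-2, 4 were called lower and 0 higher in SDH-SD, where 4.26% of all genes were called lower. They were Srebf1 (-1.12 ± 0.30), the fatty acid elongase Elovl6 (-1.18 ± 0.25), acetyl-CoA carboxylase Acaca (-0.55 ± 0.17) and the lipogenic gene Thrsp (-1.65 ± 0.42), with limma adjusted p from 0.00621 to 0.0489. In HFDH-HFD 3 were called lower (Srebf1, Acaca and Elovl6, where 2.94% of all genes were) and all 12 were below 0, with a median of -0.67 beside 0.06 for the cholesterol members. In HFD-SD 2 were called lower (Acaca and Elovl6, where 0.441% of all genes were). In SDL-SD and HFDL-HFD 0 were called, and 4 and 0 passed unadjusted, beside 1071 and 1058 of all 9972 genes.

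**Figure D5:**
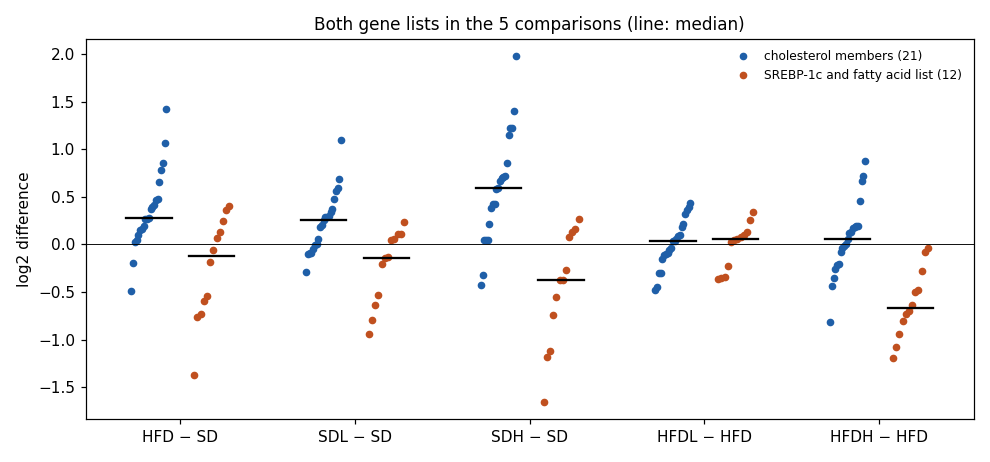
Log2 difference (vertical axis) of the 21 cholesterol members (blue) and the 12 tested SREBP-1c and fatty acid synthesis genes (orange) in the 5 comparisons, with 1 point for each gene and lines for medians. In SDH-SD the medians are 0.59 and -0.38, and in HFDH-HFD all 12 orange points lie below 0.

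Of the 10 tested genes of sterol export and oxysterol metabolism, Cyp7b1 and Cyp27a1, which hydroxylate sterols on the way to bile acids, were called higher in HFDH-HFD (1.17 ± 0.30 and 0.54 ± 0.14, limma adjusted p = 0.0254 and 0.0261, where 1.44% of all genes were called higher). In the other 4 comparisons 0 of the 10 were called, and 1 to 3 passed unadjusted, beside 1058 to 2341 of all 9972 genes. Of the 6 tested genes of SREBP processing and sterol-regulated degradation, Erlin2, an endoplasmic reticulum protein that restrains the SREBP-Scap complex, was called lower in SDH-SD (-0.44 ± 0.11, limma adjusted p = 0.0193), where 4.26% of all genes were. Of the 9 tested genes that use isoprenoids, Coq2, which attaches the isoprenoid tail of coenzyme Q, was called lower in HFDH-HFD (-0.57 ± 0.15, limma adjusted p = 0.0256), where 2.94% of all genes were.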

How the data were processed

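Liver RNA of 30 mice was hybridised to 32 arrays, 2 mice being measured on 2. Intensities deposited by the authors were raw probe signals extracted with GenomeStudio 2011.1, from 30 to 37030 on the arrays used, and the deposited p-values were detection p-values set against negative control probes. Another deposited table holds the authors' Z-normalised score of each probe, used as an alternative. The number of arrays limits the precision.

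Arrays with at least 35% of probes detected at p under 0.05 were kept (43.8% to 52.7%), and 3 mice at 6.56% to 27.2% were left out. Log2 intensities were centred on each array, divided by its SD and multiplied by the mean SD (1.89), following the authors' Z-normalisation, and repeat arrays were averaged. Probes detected in at least 5 mice were kept (13301 of 25697, with 1719 lacking a symbol), 1 probe, that of highest mean level, for each of 9972 genes. Differences were tested with limma 3.58.1 in R 4.3.3, with all 6 groups in 1 fit and Benjamini-Hochberg adjustment, a step tested on simulated data. The methods' t-test was an alternative, as were other normalisations, filters, probes, weights and sets of mice. Values for every mouse are given for members called in HFD-SD, SDL-SD, SDH-SD, HFDL-HFD or HFDH-HFD and for the 2 largest absolute differences in each. The members and lists were chosen with earlier results of these data known.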

Additional observations from a re-analysis of the deposited data

Results flagged for a closer look

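Of 66 groups of mice examined for a single distant mouse, over 11 members, 2 had one. Chance alone would give about 1 in 20. Sqle in HFD replicate 3 was 3.27, while the other 4 HFD mice lay between 4.32 and 4.61, and this mouse was the lowest HFD mouse in 14 of the 21 members. Insig1 in SDL replicate 10 was 3.31, while the other 4 SDL mice lay between 2.53 and 2.75. Only the probe used for each gene was examined. By the second Sqle probe HFD replicate 3 read 1.49, and the other HFD mice 2.36 to 2.88. By the other detected Insig1 probes SDL replicate 10 read 3.01 and 3.16, and the other SDL mice 2.26 to 2.65 and 2.33 to 2.60.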

How the results depend on the processing

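Of 474 values of the 11 called results under the alternatives, 389 kept their direction and call, 82 kept the direction without the call and 3 reversed. For each result 27 values came from fits without 1 mouse, often a mouse of a group not compared, where little can change. Only 16 or 17 came from the other alternatives, and the unadjusted t-test counted there as a call. The total therefore says little on robustness. With all 30 mice, 0 members were called in HFD-SD, SDH-SD, HFDH-HFD and HFDH-SDH. The 3 called results that reversed did so there: Hmgcs1 in SDH-SD (-0.46), Stard4 in SDH-SD (-0.31) and Scarb1 in HFDH-SDH (-0.0155). Sqle in HFDH-HFD (-0.18), which is not one of the 11 called results, reversed there too. The 3 added mice have few detected probes. The medians were then -0.03 in SDH-SD, -0.57 in HFDL-HFD, -0.30 in HFDH-HFD, -0.20 in SDH-SDL, -0.35 in HFDL-SDL and -0.64 in (HFDL-HFD)-(SDL-SD). Without the 2 pancreas-containing mice, 4 were called in SDH-SD, 1 in HFDL-SDL and 1 in HFDH-SDH. Without SD replicates 2 and 5, a choice made after seeing the data, 0 were called in HFD-SD, 3 in SDH-SD, 2 in HFDH-HFD, 1 in HFDL-SDL and 1 in HFDH-SDH, and the SDL-SD median was -0.09, the SDH-SD median 0.30, with 0.12 in (HFDL-HFD)-(SDL-SD) and -0.21 in (HFDH-HFD)-(SDH-SD). With only the groups compared, which leaves fewer mice for the spread, 0 were called in HFD-SD, 2 in SDH-SD, 1 in HFDL-SDL and 1 in HFDH-SDH. Array weights gave 2 in HFD-SD, 3 in HFDH-HFD and 5 in HFDL-SDL. Median centring without scaling gave 2 in HFDH-HFD and 1 in HFDH-SDH, with medians of -0.05 in HFDL-SDL and -0.37 in HFDH-SDH. Requiring detection in every mouse of a group gave 2 in HFD-SD and 1 in HFDL-SDL, no detection filter gave 1 in HFDH-SDH, and the mean over probes gave 1 in HFDL-SDL and 1 in HFDH-SDH. The methods' t-test at an unadjusted p gave 9 in HFD-SD, 3 in SDL-SD, 1 in HFDL-HFD, 4 in HFDH-HFD, 8 in SDH-SDL, 3 in HFDL-SDL and 1 in HFDH-SDH, and after Benjamini-Hochberg 0 in HFD-SD, SDH-SD, HFDH-HFD and HFDH-SDH. Where nothing else is said, the cause was not tested.

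Leaving out 1 mouse gave 0 to 2 called members in HFD-SD, 0 to 1 in SDL-SD and HFDL-SDL, 5 to 8 in SDH-SD, 1 to 2 in HFDH-HFD, 1 to 3 in HFDH-SDH and 0 in HFDL-HFD, SDH-SDL, HFDH-HFDL and both interactions.

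Replicate numbers gave no clear pairing of the mice. Same-numbered SD and HFD mice had correlations of deviations from -0.20 to 0.21 (median 0.16, 5 pairs). Those with other numbers had -0.24 to 0.26 (median -0.01, 20 pairs), and 5 pairs are too few to exclude a pairing. In the authors' scores over all groups the medians were 0.001 (same number, 61 pairs) and 0.006 (other number, 242 pairs). With the replicate number as a block, a fit of the SD and HFD mice alone called 0 members in HFD-SD on the intensities. The fit of the same mice without the block called 0 as well. With the block, the authors' scores gave 2 in HFD-SD and 7 in SDH-SD.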
